A study of Caenorhabditis elegans with 36 samples.

Results

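The pals genes of the nematode C. elegans were examined across embryos, L1 larvae and L4 larvae of the wild type, of xnp-1 animals and, at L4, of animals whose labels name gsox-1 alone or together with xnp-1. Members were all genes whose symbol is pals- followed by a number in the gene name table. This gave 38 members among the 46926 genes listed in each of the poly(A) RNA count tables, and RefSeq annotates all 38 as protein-coding. The rule that lists the members reads names only.

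The family is named for a signature shared with the mammalian ALS2CR12 protein, and the biochemical function of its members is largely unknown. Many of them are best known as readouts of the intracellular pathogen response (IPR), a set of genes that worms switch on in the intestine and epidermis when infected by microsporidia or the Orsay virus, and during some proteotoxic stresses. A few members act as switches of that response. pals-22 and pals-17 hold it down, and pals-25 (against pals-22) and pals-16 and pals-20 (against pals-17) are needed to turn it on when the repressor is lost.

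xnp-1 encodes the nematode counterpart of ATRX, a chromatin remodelling protein, and gsox-1 is the gene named in the labels of the second mutant background. Embryos were taken from bleached adults grown at 20 °C, and L1 larvae were such embryos kept in M9 buffer for about 11 h. Wild-type N2 animals and animals labelled xnp1 were compared at both of these stages, and the study's design text calls the latter a knockdown. L4 larvae were raised at 25 °C and came from N2 and from 3 strains that the design text calls mutants, the single xnp-1 strain, the single gsox-1 strain and the double xnp-1;gsox-1 strain. Every group held 3 libraries labelled as biological replicates, all from whole animals, and the labels used here give no allele. The xnp1 animals of the younger stages are called xnp-1 below.

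Library totals ran from 29896459 to 41520291 fragments for embryos and L1 larvae and from 39004451 to 45391494 reads for L4 larvae, and levels are given as CPM, the counts of a gene scaled to a fixed library size with edgeR's TMM factors. The younger stages and the L4 larvae were counted in separate tables with different settings, so no L4 level was tested against an embryo or L1 level. xnp-1 itself stood at 401.1 ± 28.0 CPM in N2 embryos and 131.5 ± 7.72 in xnp-1 embryos (SD, n = 3 each, as for every mean below). In L1 larvae it stood at 249.1 ± 33.3 in N2 and 170.4 ± 6.62 in xnp-1. At L4 it stood at 75.5 ± 13.3 in N2, 46.0 ± 5.73 in xnp-1, 92.2 ± 4.92 in gsox-1 and 29.3 ± 7.64 in xnp-1;gsox-1. gsox-1 RNA was not lower in the libraries labelled gsox-1 (78.5 ± 3.55 CPM) or xnp-1;gsox-1 (70.5 ± 24.7) than in N2 (56.9 ± 12.7). Its level against N2 thus does not check those labels, and they are called libraries labelled gsox-1. In xnp-1 L4 larvae it stood at 162.6 ± 14.9 CPM, with every library above every xnp-1;gsox-1 library. It stood at 217.6 ± 20.2 CPM in N2 embryos and 312.1 ± 61.0 in xnp-1 embryos. In L1 larvae it stood at 127.2 ± 24.2 in N2 and 176.6 ± 21.7 in xnp-1. P-values measure only the spread between libraries, which may be partly technical.

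The family lies in few places. Chromosome I carries 15 members, chromosome III 14, chromosome V 7 and chromosome IV 2, and 33 of the 38 sit in 6 clusters with no gap over 50 kb between neighbours (WBcel235). The largest cluster holds 14 members on chromosome I, from 13083321 to 13144623, among them pals-5, whose promoter is the usual IPR reporter. On chromosome III, pals-24, pals-23, pals-22 and pals-25 lie between 120435 and 137975, and pals-40, pals-21, pals-20, pals-17, pals-16, pals-19 and pals-18 lie between 1376945 and 1406263. These clusters hold all 5 members named above as switches of the response. They are called the regulator clusters below, after those 5 genes. pals-26, pals-27 and pals-28 form another chromosome III cluster, from 4375154 to 4387757. pals-29 and pals-30 are neighbours on chromosome IV (14539685 to 14551970), and pals-37, pals-39 and pals-38 on chromosome V (12437440 to 12446995). pals-1 on chromosome I and pals-31, pals-32, pals-33 and pals-34 on chromosome V stand alone. Exon lengths in the deposited tables ran from 277 to 2719 bases, with a median of 1189.

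**Figure D1:**
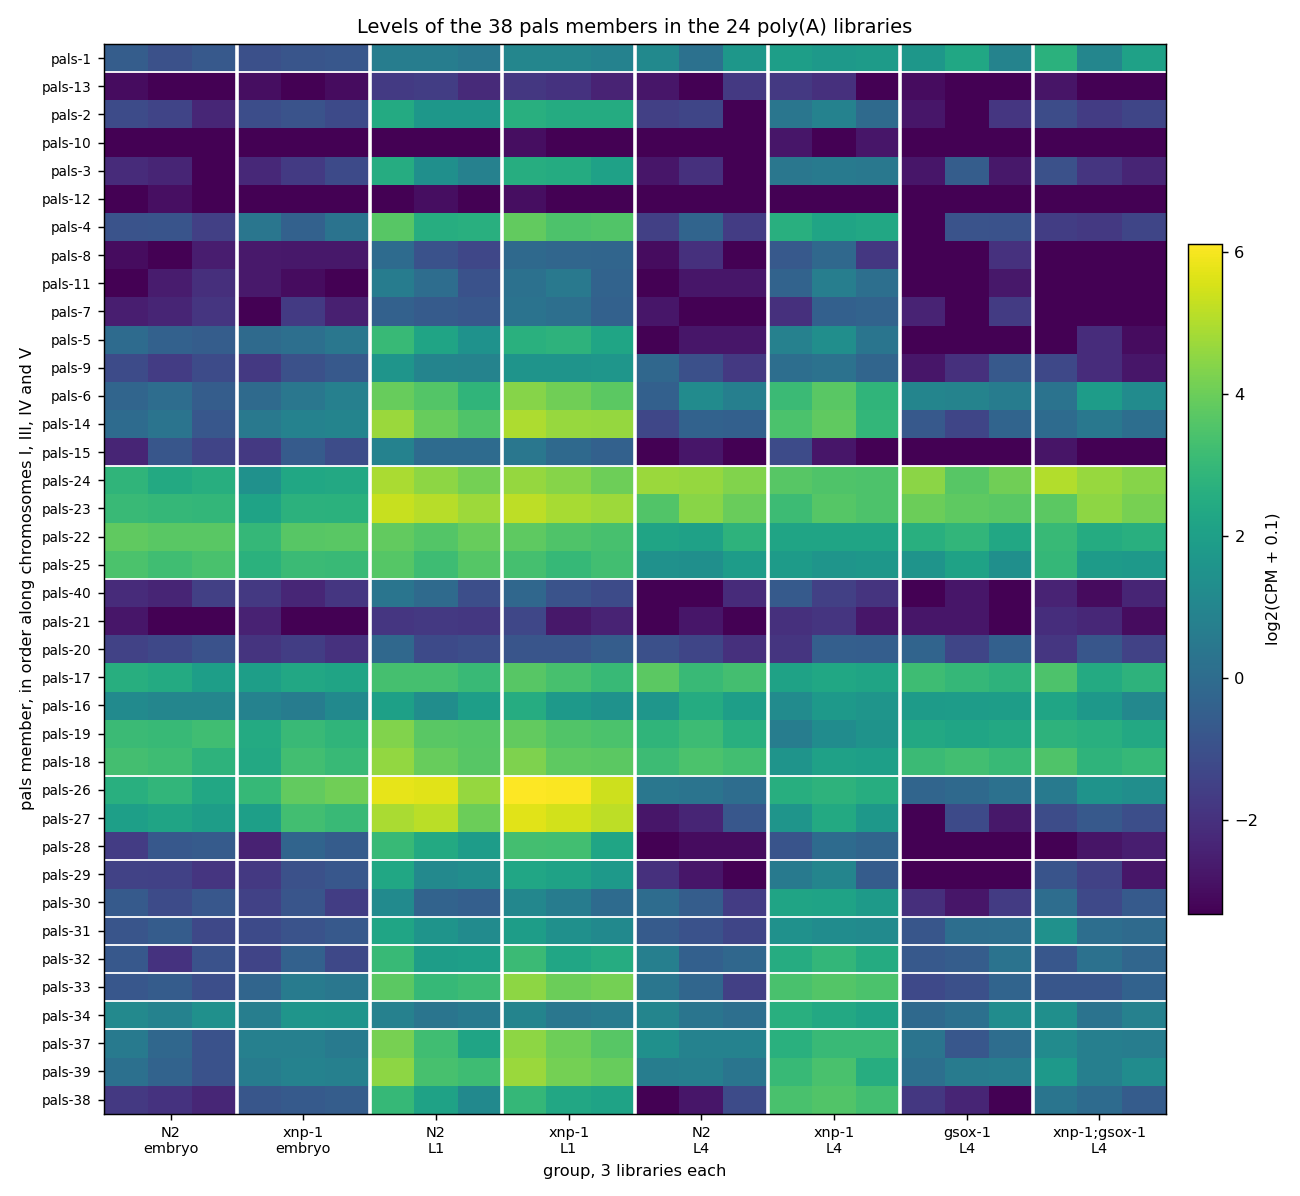
Heat map of log2(CPM + 0.1) for the 38 pals members (rows, in chromosomal order, thin lines between clusters) in the 24 poly(A) libraries (columns, 3 per group). Rows of most clusters are brighter in the L1 columns than in the embryo columns and, at L4, brighter in the xnp-1 columns than in the other 9, while pals-24, pals-17, pals-19 and pals-18 are darker in the L4 xnp-1 columns than in the L4 N2 columns.

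In wild-type animals the regulator clusters gave most pals reads except in L1 larvae. In N2 embryos they gave 45.2% and 29.8% of the family's summed CPM on average (the pals-22 and the pals-17 cluster), and at L4 50.8% and 33.8%. In N2 L1 larvae they gave 26.8% and 15.1%, beside 17% from the chromosome I cluster and 24% from the pals-26 cluster. Per kilobase of exon, pals-22 was the most abundant member in N2 embryos at 14.8 ± 0.69 CPM per kb, above pals-25 at 9.50 ± 0.81 by more than their spread. pals-19 (8.90 ± 0.49) was within the spread of pals-25, and pals-24 (6 ± 1.00), pals-17 (5.78 ± 1.25) and pals-23 (5.26 ± 0.31) followed without differing beyond their spread.

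The order was different in the larvae. In N2 L1 larvae the 6 highest members per kilobase were pals-24 (23.0 ± 6.15 CPM per kb), pals-23 (22.4 ± 4.44), pals-27 (17.7 ± 6.48), pals-26 (15.9 ± 6.04), pals-19 (15.5 ± 4.47) and pals-22 (15.4 ± 1.98), and no neighbours in this order differed beyond their spread. In N2 L4 larvae pals-24 stood first at 23.4 ± 3.06 CPM per kb, above pals-17 (12 ± 3.04) by more than their spread. pals-23 (10.8 ± 3.32), pals-19 (7.58 ± 1.36), pals-22 (5.74 ± 1.60) and pals-18 (4.09 ± 0.48) followed, and from pals-17 on no neighbours in the order differed beyond their spread.

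The family rose steeply between the embryo and the L1 larva. Its summed level was 77.0 to 88.7 CPM in the N2 embryo libraries and 224.6 to 412.8 CPM in the N2 L1 libraries. Of the 38 members, 34 passed the filter on low counts, and 29 of these rose and none fell at an adjusted p under 0.05 over all genes (edgeR's quasi-likelihood test with Benjamini-Hochberg adjustment, the threshold used throughout). Over all 17687 genes tested in N2, 59.5% were called, 34.3% as higher and 25.2% as lower. The median log2 change was 2.82 over the 34 members and 0.10 over all genes. pals-3, pals-8, pals-11, pals-7 and pals-40 passed the filter only through their L1 levels, so that they were bound to differ; without them 24 of 29 rose, with a median log2 change of 2.82. pals-13, pals-10, pals-12 and pals-21 were not tested. Markers of stage and tissue changed between the same libraries: 10 of 11 oocyte and early embryo markers fell, 4 of 6 epidermis markers fell and 1 rose, and 4 of 7 intestine markers rose and 1 fell. The oocyte and early embryo list summed to 570.9 to 661.6 CPM in embryos and 163.2 to 343.9 CPM in L1 larvae. Epidermis markers summed to 586.6 to 690.5 CPM in embryos and 230.9 to 434.9 CPM in L1 larvae, and intestine markers to 1759 to 2173 CPM and 3318 to 7173 CPM. Stage and these markers cannot be told apart.

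pals-33, which lies alone on chromosome V, had the smallest adjusted p. Its level was 0.49, 0.57 and 0.38 CPM in the N2 embryo libraries and 13.3, 7.90 and 8.73 CPM in the N2 L1 libraries. The groups did not overlap, and the log2 change was 4.36 (SE 0.34; edgeR adjusted p = 2.26e-06). The reporter gene pals-5 was measured at 0.88, 0.66 and 0.59 CPM in embryos and at 8.15, 4.40 and 2.72 CPM in L1 larvae. Every L1 library lay above every embryo library, with a log2 change of 2.82 (SE 0.39; edgeR adjusted p = 0.000128). N2 L1 replicate 1 was the highest of its group for both genes and for the family as a whole.

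The rise was large in every cluster outside the regulator clusters. In the chromosome I cluster pals-14 rose by 4.36 on the log2 scale, pals-4 by 4.41, pals-6 by 3.88 and pals-2 by 3.91, and the 11 tested members of that cluster had log2 changes of 2.06 to 5.33. On chromosome V pals-39 rose by 4.27 and pals-38 by 4.90. pals-26 went from 6.15, 7.20 and 4.93 CPM to 53.5, 51.9 and 24.3 CPM, which made it one of the most abundant members in L1 larvae. Its neighbour pals-27 went from 3.94, 4.46 and 3.72 CPM to 30.0, 34.8 and 15.9 CPM. Both rose without overlap between stages, by 2.82 and 2.73 (edgeR adjusted p = 6.32e-05 and 7.3e-05). The call for pals-30 (log2 change 1.33, edgeR adjusted p = 0.0413) was lost on leaving out each N2 embryo library in turn and without N2 L1 replicate 1, which also ended the calls of pals-19 and pals-18.

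Estimates for the switches pals-22 and pals-25 were near 0. pals-22, the repressor, was measured at 13.9, 13 and 12.8 CPM in N2 embryos and at 14.4, 11.8 and 15.2 CPM in N2 L1 larvae. The stages overlapped, and the log2 change was 0.06 (SE 0.22; edgeR adjusted p = 0.819). Its antagonist pals-25, the next gene on the same strand, was measured at 10.8, 9.19 and 10.6 CPM and then at 12.2, 8.91 and 12.1 CPM. That change was 0.12 (SE 0.21; edgeR adjusted p = 0.632), and the stages overlapped again. pals-24 and pals-23, from the same cluster as pals-22, rose by 1.93 and 2.09 (edgeR adjusted p = 0.000214 and 1.67e-05).

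In the other regulator cluster pals-17, the second repressor, rose by 0.91 (SE 0.24; edgeR adjusted p = 0.0067), from 5.93, 5.34 and 3.82 CPM to 10.0, 10.0 and 8.37 CPM. pals-16, which promotes the response against pals-17, had a log2 change of 0.76 (SE 0.32; edgeR adjusted p = 0.052) and pals-20 one of 0.60 (SE 0.42; adjusted p = 0.228). pals-20 was scarce, at 0.27, 0.32 and 0.42 CPM in embryos and 0.80, 0.34 and 0.38 CPM in L1 larvae, with overlap between stages. pals-16 was close to the threshold, and it passed with DESeq2 and with scaling to library totals. pals-34 was the lone member with a lower mean in L1 larvae, at a log2 change of -0.57 (edgeR adjusted p = 0.121).

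**Figure D2:**
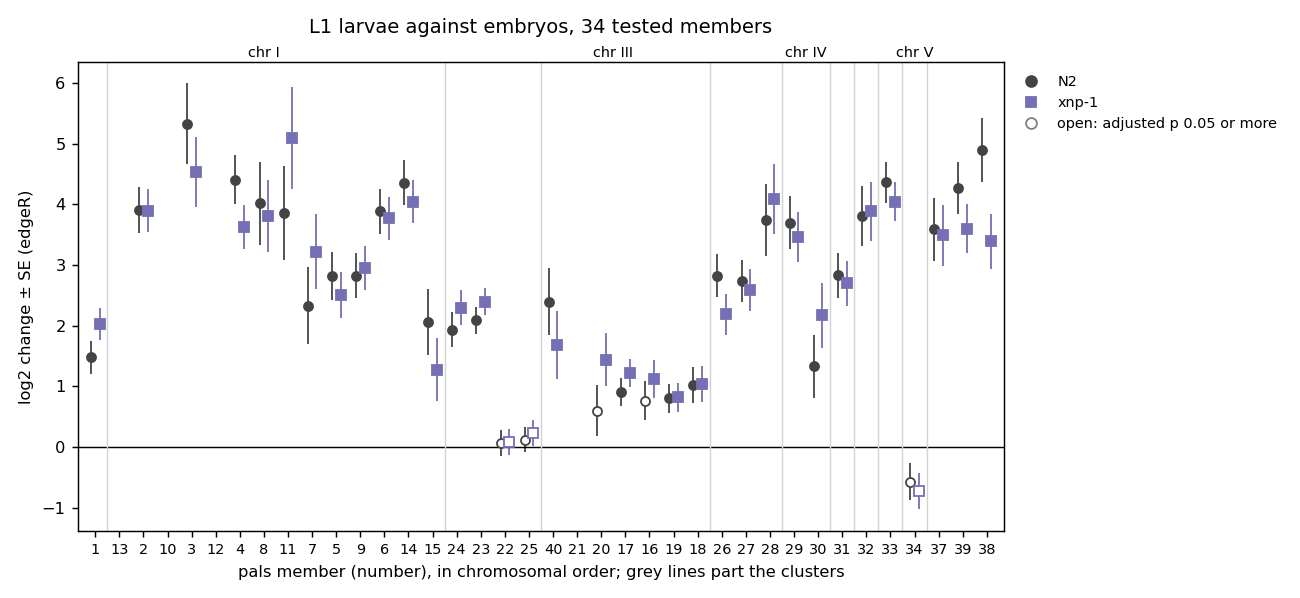
Log2 change from embryos to L1 larvae with its SE (y axis, edgeR) for the 34 tested pals members in chromosomal order (x axis), in N2 (circles) and in xnp-1 animals (squares). Filled symbols passed the threshold. Most members lie between 1 and 5 in both genotypes, and pals-22 and pals-25 lie near 0 in both.

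Genes that share the IPR with the pals family followed the same stages. Of 23 tested IPR effectors outside the family, 17 rose and 1 fell between N2 embryos and L1 larvae (median log2 change 2.36). Over all genes 34.3% were called higher and 25.2% lower. Genes of these lists that passed the filter only through their L1 levels were not set apart. B0507.8 rose by 3.55, and the F-box genes fbxa-158 and fbxa-75 by 3.27 and 4.20. All 7 genes of the CUL-6 ubiquitin ligase, which the response uses against proteotoxic stress, rose. Among them the cullin cul-6 rose by 2.12 and the Skp1-related adaptor skr-5 by 3.92. This list shares fbxa-158 with the effectors, so the counts of these lists are not separate. Among known regulators outside the family, pnp-1 (a purine nucleoside phosphorylase that represses the response) rose by 1.52, sta-1 (a STAT protein) by 1.36 and zip-1 (a transcription factor acting downstream) by 1.08. drh-1, a RIG-I-like sensor of viral RNA, fell by 0.67 and lin-35, the worm retinoblastoma protein, fell by 1.43. Of 24 tested chil genes, chitinase-like genes known from the response to oomycetes, 16 rose and 2 fell.

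In xnp-1 animals 31 of the 34 tested members rose and none fell, where 63% of all genes were called, 35.5% as higher and 27.6% as lower. The median log2 change was 2.64 over the members and 0.11 over all genes. Without the 5 members that passed only through L1 levels, 26 of 29 rose. pals-33 rose by 4.04, pals-14 by 4.05, pals-2 by 3.90, pals-23 by 2.39, pals-6 by 3.77, pals-4 by 3.63, pals-39 by 3.60 and pals-29 by 3.46. pals-5 rose by 2.51 (SE 0.38; edgeR adjusted p = 0.000191), pals-17 by 1.22, pals-16 by 1.12 and pals-20 by 1.44. pals-22 (0.08, SE 0.22), pals-25 (0.23, SE 0.21) and pals-34 (-0.73, SE 0.30; edgeR adjusted p = 0.0506) again missed the threshold. pals-34 was close to it. It was called lower with DESeq2 (DESeq2 adjusted p = 0.0281) and with RLE scaling (edgeR adjusted p = 0.0426). The same call was made without xnp-1 embryo replicate 1 or without xnp-1 L1 replicate 1. The calls of pals-15 (1.28, edgeR adjusted p = 0.0469), pals-40 and pals-16 were not stable. pals-15 lost its call without xnp-1 embryo replicate 1 or 3 or xnp-1 L1 replicate 1 or 2, pals-40 without xnp-1 embryo replicate 2 or L1 replicate 1, and pals-16 without L1 replicate 1.

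The stage change was then compared between the genotypes in the same fit. No member passed, 1 had an unadjusted p under 0.05, and none of the 17687 genes passed with edgeR (0% called, 454 at an unadjusted p under 0.05). DESeq2 called none of the members and 3 genes in all (0.0108%). The largest difference at that unadjusted level was that of pals-38, at -1.51 (SE 0.68; edgeR adjusted p = 1). In simulated data of this size the test found 47% of genes whose effect differed 4-fold and 2% of those that differed 2-fold, so differences of the latter size were not detectable here. Every simulated group was drawn from the mean over all libraries, and genes at very low levels were not among those changed. The shares may therefore not hold for members that are scarce in embryos.

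In embryos, xnp-1 animals did not differ from N2 at the threshold in any pals member. None of the 34 tested members was called by edgeR, where 1.11% of all genes were, while 7 had an unadjusted p under 0.05 and DESeq2 called 3 higher (3.28% of all genes with that tool). Those 3 were pals-33 (log2 change 1.23 in edgeR, adjusted p = 0.112), pals-4 (1.38, adjusted p = 0.141) and pals-26 (1.08, adjusted p = 0.173). pals-33 was measured at 0.49, 0.57 and 0.38 CPM in N2 embryos and at 0.73, 1.43 and 1.24 CPM in xnp-1 embryos, and pals-26 at 6.15, 7.20 and 4.93 CPM and then at 7.85, 14.4 and 16.5 CPM. The xnp-1 libraries were all above the N2 libraries for both genes. Over the family, 6 members had all xnp-1 libraries higher and 5 had all lower, against 9.51% and 14.7% of all genes. The median log2 change was 0.21 over the members and 0.03 over all genes.

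The switches had negative estimates in xnp-1 embryos that missed the threshold. pals-22 stood at 7.74, 12.5 and 12.7 CPM against 13.9, 13 and 12.8 CPM in N2, with a log2 change of -0.27 (SE 0.22; edgeR adjusted p = 0.701). pals-25 stood at 6.35, 8.63 and 8.29 CPM against 10.8, 9.19 and 10.6 CPM, a change of -0.39 (SE 0.21; edgeR adjusted p = 0.507). Neither pair of groups overlapped. pals-17 (-0.19, SE 0.24), pals-16 (-0.18, SE 0.32), pals-20 (-0.83, SE 0.46) and pals-5 (0.52, SE 0.40) had edgeR adjusted p-values of 0.531 to 0.861.

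One embryo library stood apart. xnp-1 embryo replicate 1 had the lowest summed pals level of its group (61.9 CPM, against 98.9 and 97.1 CPM in replicates 2 and 3). Its 11 markers of oocytes and early embryos summed to 1335 CPM, against 629.4 and 618.4 CPM in the other xnp-1 embryo libraries and 570.9 to 661.6 CPM in N2. Without it the median log2 change of the members was 0.51 in place of 0.21, and the number called was still 0. Leaving out other libraries lowered it, to 0.05 without xnp-1 embryo replicate 3, 0.07 without xnp-1 embryo replicate 2, 0.10 without N2 embryo replicate 1 and 0.13 without N2 embryo replicate 2, and it was 0.37 without N2 embryo replicate 3. A fit of the embryo groups alone called pals-38 (3.79% of all genes) and, with the replicate block, pals-26 (4.42%). The part of this library's marker levels in the embryo values was not tested. In whole animals, fewer cells of a type and less RNA per cell cannot be told apart.

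**Figure D3:**
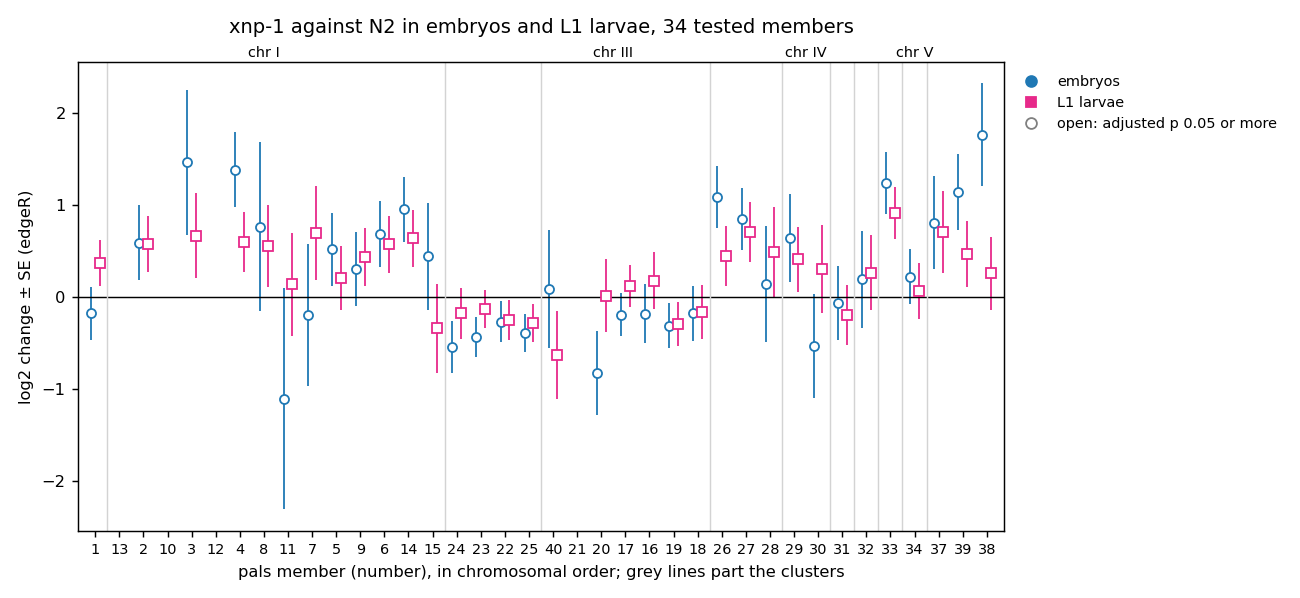
Log2 change of xnp-1 against N2 with its SE (y axis, edgeR) for the 34 tested pals members in chromosomal order (x axis), in embryos (circles) and in L1 larvae (squares). All symbols are open because no member passed the threshold at either stage, and the values lie between -1.10 and 1.76.

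In L1 larvae no member was called either, where 0.481% of all genes were. At an unadjusted p under 0.05 there was 1 member, and DESeq2 called none (1.34% of all genes). The summed level was 224.6 to 412.8 CPM in N2 and 313.7 to 460.7 CPM in xnp-1 larvae, and the median log2 change was 0.28 over the 34 members and 0.01 over all genes. In simulated data of this size 81% of 4-fold and 21% of 2-fold changes were recovered, again with no change put into genes at very low levels.

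Same-numbered N2 and xnp-1 L1 libraries varied together, so the paired fit is given beside this result. The labels name no shared batch for a replicate number, and the pairing was chosen from these same data. That choice favours calls in the paired fit, so they are no separate test. With replicate number as a block in a fit of these 2 groups alone, 8 members were called higher and none lower, where 11.6% of all genes were called. They were pals-33 (0.92, SE 0.11; edgeR adjusted p = 0.000965), pals-27 (0.75), pals-6 (0.60), pals-14 (0.70), pals-26 (0.48), pals-37 (0.84), pals-4 (0.66) and pals-39 (0.55). Adding the block to the 4-group fit called none, where 0.577% of all genes were called. The 2-group fit without the block called none either, where 0.075% of all genes were called. pals-33 was measured at 13.3, 7.90 and 8.73 CPM in N2 L1 replicates 1 to 3 and at 22.9, 15.7 and 17.7 CPM in xnp-1 L1 replicates 1 to 3. Its log2 difference was 0.78 in the pair numbered 1, 0.98 in the pair numbered 2 and larger still in the pair numbered 3. Marker sums also differed within all 3 pairs. Intestine markers were lower in xnp-1 larvae (3978, 2536 and 2217 CPM against 7173, 3904 and 3318 CPM) and oocyte and early embryo markers were higher (307.9, 410.8 and 456.3 CPM against 163.2, 343.9 and 288.2 CPM), though no gene of these lists was called in the unpaired fit. Their part in the paired pals result was not tested.

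N2 L1 replicate 1 weighed on the unpaired values. It held the highest pals sum of its group (412.8 CPM, against 302.0 and 224.6 CPM), and the 25 other IPR effectors summed to 133.6 CPM there against 73.9 and 75.1 CPM. It also had the highest intestine and the lowest oocyte and early embryo marker sums of its group, given above. Without it the members' median log2 change was 0.71, 14 had an unadjusted p under 0.05 and none was called. The median fell to 0.13 without N2 L1 replicate 2 or 3 and to 0.15 without xnp-1 L1 replicate 1, so its size rests on single libraries. Of the switches, pals-22 (-0.25, SE 0.22), pals-25 (-0.28, SE 0.21), pals-17 (0.12, SE 0.23), pals-16 (0.18, SE 0.31) and pals-20 (0.01, SE 0.39) missed the threshold, as did pals-5 (0.20, SE 0.35). Their edgeR adjusted p-values were 0.927 to 0.996.

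At L4 the family split by cluster in xnp-1 larvae. Of 30 tested members, 19 rose and 4 fell against N2, where 48.5% of all genes were called, 23.3% as higher and 25.3% as lower. The median log2 change was 2.51 over the tested members and -0.16 over all genes. Among tested members, the 19 that rose lie outside the regulator clusters and the 4 that fell lie inside them. pals-40 and pals-21, of the pals-17 cluster, had too few reads to be tested but had more reads in xnp-1 larvae than in N2 (39 against 5 and 15 against 2). The chromosome I cluster had 7 higher calls among 8 tested members, all 3 members of the pals-26 cluster, both of the chromosome IV pair and all 3 of the pals-37 cluster rose, and so did pals-31, pals-32, pals-33 and pals-34. pals-1 (0.76) and pals-9 (1.013) missed the threshold. pals-3, pals-11, pals-5, pals-28 and pals-29 passed the filter only through the xnp-1 libraries and were bound to differ. Without these 5, 14 of 25 members rose and 4 fell, with a median log2 change of 1.94.

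pals-14 had the smallest adjusted p. Its level was 0.30, 0.68 and 0.64 CPM in N2 and 10.7, 14 and 7.53 CPM in xnp-1 larvae, with a log2 change of 4.31 (SE 0.43; edgeR adjusted p = 1.35e-05). pals-33 was measured at 1.20, 0.76 and 0.25 CPM in N2 and at 10.6, 12 and 10.8 CPM in xnp-1 larvae, a change of 3.92 (SE 0.48; edgeR adjusted p = 5.91e-05). For both genes the lowest xnp-1 library was several times above the highest N2 library. pals-38 went from 0, 2 and 14 reads in the N2 libraries to 423, 473 and 397 reads in xnp-1 larvae, or 10.5, 11.6 and 9.34 CPM. It had the largest change, 6.29 (SE 0.86; edgeR adjusted p = 0.000117).

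Its neighbours on chromosome V changed less. pals-39 was measured at 1.49, 1.56 and 1.18 CPM in N2 and at 8.11, 10.6 and 5.79 CPM in xnp-1 larvae (log2 change 2.53, SE 0.34; edgeR adjusted p = 0.000112). pals-37 rose by 1.93 (SE 0.33), pals-32 by 2.63 (SE 0.44) and pals-6 by 2.68 (SE 0.49), with edgeR adjusted p-values of 0.000443 to 0.000878. pals-26 went from 1.22, 1.15 and 0.93 CPM to 5.98, 6.72 and 5.81 CPM, by 2.49 (SE 0.31; edgeR adjusted p = 5.96e-05). The other members that rose had log2 changes of 1.94 to 5.63.

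The reporter gene pals-5 was nearly silent outside the xnp-1 libraries at L4. It gave 0, 2 and 2 reads in the N2 libraries, none in the 3 libraries labelled gsox-1, and 68, 99 and 50 reads in xnp-1 larvae. Since it passed the filter only through the xnp-1 libraries, these reads are given as a description, with no test. pals-28 gave 2 reads in the N2 libraries together and 86 in xnp-1 larvae, a ratio of 42.4 after scaling (95% counting interval 11.4 to 356). pals-2, with 10, 12 and 0 reads in N2 and 48, 69 and 37 in xnp-1 larvae, lost its call (2.77, edgeR adjusted p = 0.0304) when N2 replicate 1 or 3 or any xnp-1 library was left out. Intervals of this kind cover counting error only, and are too narrow where both mates of a fragment were counted. With L4 counts halved, pals-28 fell below the filter.

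The 8 members below the filter at L4 had few reads in any group. pals-7 gave 62 reads in xnp-1 larvae and 2 in N2 (ratio 30.6, 95% counting interval 8.12 to 258), pals-15 gave 16 and 2 (7.89, 1.86 to 70.8) and pals-21 gave 15 and 2 (7.4, 1.72 to 66.7). pals-8 gave 62 and 7 and pals-13 gave 14 and 10. pals-40, which like pals-21 lies in the pals-17 regulator cluster, gave 39 and 5. It entered the fit and was called higher without N2 replicate 3, but it could pass the filter only through the xnp-1 libraries. It was then bound to differ, so its reads are given as a description. pals-10 gave 4 and 0. pals-12, whose span lies inside pals-3 on the same strand, had no read at L4 in any library. Its count is uncertain, since a read that matches both genes need not be counted.

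Among the switches the repressor pals-17 fell in xnp-1 larvae. It was measured at 13.4, 8.22 and 9.66 CPM in N2 and at 4.25, 4.78 and 4.49 CPM in xnp-1 larvae, without overlap (log2 change -1.21, SE 0.29; edgeR adjusted p = 0.00494). pals-22 was measured at 4.46, 4.15 and 6.77 CPM in N2 and at 4.50, 4.46 and 4.42 CPM in xnp-1 larvae. Those groups overlapped, and its change of -0.20 (SE 0.26; edgeR adjusted p = 0.55) missed the threshold. pals-25, at 2.67, 2.49 and 3.65 CPM and then 3.56, 2.91 and 3.11 CPM, overlapped too (0.12, SE 0.35; edgeR adjusted p = 0.797). pals-16 (-0.53, SE 0.33) and pals-20 (0.74, SE 0.65) had edgeR adjusted p-values of 0.2 and 0.375.

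The other members that fell have no known switch function and lie beside these genes. pals-19 went from 7.13, 8.71 and 6.10 CPM to 1.48, 2.31 and 2.78 CPM (log2 change -1.74, SE 0.26; edgeR adjusted p = 0.000236). pals-18 went from 8.65, 10.9 and 9.39 CPM to 2.87, 4.09 and 3.91 CPM (-1.41, SE 0.24; edgeR adjusted p = 0.000486). pals-24, the most abundant member per kilobase in N2 at L4, went from 26.1, 24.7 and 20.2 CPM to 12.7, 11.3 and 10.9 CPM (-1.02, SE 0.23; edgeR adjusted p = 0.00359). None of the 3 genes overlapped between groups. Over all genes tested, 32% had every xnp-1 library below every N2 library. pals-23 (-0.59, SE 0.27; edgeR adjusted p = 0.0861) missed the threshold.

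The composition of the family's RNA shifted accordingly. The summed pals level was 88.3 to 100.2 CPM in N2 and 133.3 to 167.3 CPM in xnp-1 larvae. The 2 regulator clusters gave 47.9% to 52.6% and 33.1% to 34.8% of it in N2, but 18.5% to 22.2% and 8.22% to 11.2% in xnp-1 larvae. The chromosome I cluster went from 2.59% to 4.77% in N2 up to 19.2% to 24.6%. Of the 19 members higher in xnp-1 L4 larvae, 18 also rose from embryo to L1 in N2, and so did all 4 that were lower, as did 29 of the 34 members tested between those stages. pals-34 was higher at L4 but had no call between the younger stages.

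**Figure D4:**
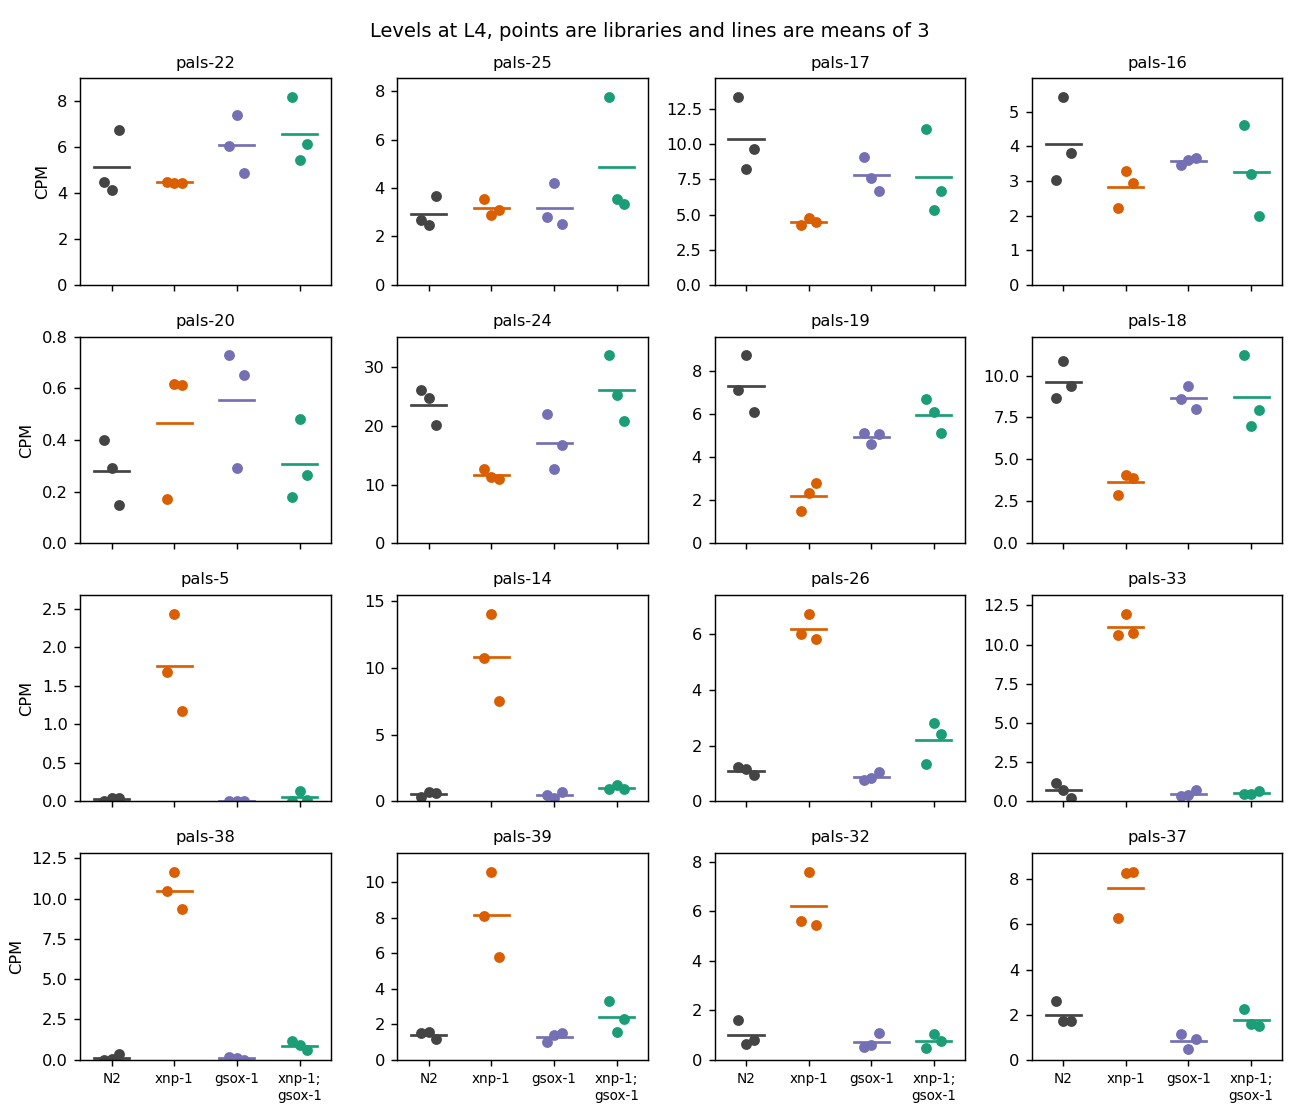
Level in CPM (y axes, each starting at 0) of 16 pals members in every L4 library (points) of the 4 genotypes (x axis), with the mean of 3 libraries as a line. In pals-5, pals-14, pals-26, pals-33, pals-38, pals-39, pals-32 and pals-37 the xnp-1 libraries lie above all others, in pals-17, pals-19 and pals-18 they lie below all others, and in pals-25 and pals-20 the groups overlap; in pals-22 the xnp-1 libraries overlap those of N2 and lie below the other 6.

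Genes between the members did not all follow them. In the chromosome I cluster, 2 of 9 other genes could be tested. C17H1.2, which overlaps pals-13 on the same strand, had no read in the N2 libraries and 74 in xnp-1 larvae. It had 2 reads in the libraries labelled gsox-1 and 6 in xnp-1;gsox-1 larvae. It could pass the filter only through the xnp-1 libraries and was bound to differ, so its reads are given as a description. In the pals-22 cluster C29F9.2 fell, from 902, 912 and 388 reads in N2 to 100, 92 and 126 in xnp-1 larvae (log2 change -2.81, SE 0.46; edgeR adjusted p = 0.000385). Its neighbour nhr-280, a nuclear receptor gene, went from 24, 34 and 12 reads to none. It could pass the filter only through the N2 libraries, so its reads are a description too. In the pals-17 cluster Y82E9BR.6 (-1.75), fbxa-138 (-0.83) and Y82E9BR.5 (-0.54) missed the threshold.

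Other IPR genes were higher in the same libraries. Of 22 tested effectors outside the family, 14 rose and none fell in xnp-1 L4 larvae (median log2 change 2.08). Over all genes 23.3% were called higher and 25.3% lower. Effectors that passed the filter only through the xnp-1 libraries were not set apart, so the count may include genes that were bound to differ. B0507.8 rose by 5.70 (SE 0.43), eol-1, which encodes a decapping enzyme homologue, by 5.31 (SE 0.40), fbxa-158 by 3.15 and fbxa-182 by 2.08. Their summed level was 55.1 to 93.5 CPM in N2 and 161.7 to 199.1 CPM in xnp-1 larvae. Of 6 tested genes of the CUL-6 ligase, fbxa-158 (also counted among the effectors), skr-5 (1.09) and cul-6 (0.72) rose. The RING protein gene rcs-1 fell by 0.73. Among regulators outside the family drh-1 rose by 0.80 and lin-35 by 1.23, while pnp-1, zip-1 and sta-1 had no call. Of 18 tested chil genes 2 rose, chil-8 by 3.06 and chil-7 by 1.81.

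Markers of stage and tissue moved in the same comparison. All 7 adult and yolk markers rose in xnp-1 L4 larvae, with sums of 20007 to 33058 CPM against 58.7 to 644.0 CPM in N2. All 11 markers of oocytes and early embryos rose too, with sums of 4663 to 5701 CPM against 129.3 to 309.1 CPM. Of the tissues in which the response is known to act, 3 of 6 epidermis markers fell (200.6 to 244.5 CPM against 958.8 to 1768 CPM) and 3 of 7 intestine markers fell (3498 to 3695 CPM against 4749 to 5876 CPM). No marker of these 4 lists was at 0 in either group. Genotype and these stage and tissue markers cannot be told apart in this comparison, and their part in the pals result was not tested.

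In the libraries labelled gsox-1, no member differed from N2 at the threshold. edgeR called none of the 30 tested members, where 0.0229% of all genes were called, with 4 at an unadjusted p under 0.05, and DESeq2 called none (0.292% of all genes). Those 4 were pals-37 (-1.24), pals-30 (-2.10), pals-19 (-0.57) and pals-29, which gave 8 reads in N2 and none here, at least 2.67-fold lower against a floor of 3 reads summed over the libraries (1.34-fold if both mates were counted). The switches pals-22 (0.25, SE 0.26), pals-25 (0.12, SE 0.35), pals-17 (-0.42, SE 0.29), pals-16 (-0.18, SE 0.33) and pals-20 (0.99, SE 0.65) missed the threshold with edgeR adjusted p-values of 0.882 to 0.945. The family sum was 75.5 to 85.0 CPM.

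In xnp-1;gsox-1 larvae the summed pals level overlapped that of N2. None of the 30 tested members was called against N2 by edgeR, where 1.04% of all genes were called, with 5 at an unadjusted p under 0.05, and DESeq2 called 2 higher, pals-38 and pals-31 (4.19% of all genes). pals-38 gave 52, 41 and 24 reads (1.16, 0.90 and 0.58 CPM), above every N2 library, with a log2 change of 2.72 (SE 0.82; edgeR adjusted p = 0.164). pals-31 stood at 2.64, 0.96 and 0.87 CPM against 0.55, 0.42 and 0.29 CPM (1.83, SE 0.49; edgeR adjusted p = 0.123). pals-26 stood at 1.34, 2.80 and 2.43 CPM (0.99, SE 0.30; edgeR adjusted p = 0.164), and it was called without xnp-1;gsox-1 replicate 1. The median log2 change was 0.38 over the members and 0 over all genes, and the family sum was 90.6 to 120.8 CPM. Estimates were above 0 for 20 members and below 0 for 10. In simulated L4 data, xnp-1 against N2 recovered 69% of 4-fold and 15% of 2-fold changes, so the lack of calls does not show equal levels.

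The switches in xnp-1;gsox-1 larvae missed the threshold against N2. pals-22 stood at 8.17, 5.44 and 6.12 CPM (0.36, SE 0.26; edgeR adjusted p = 0.649) and pals-25 at 7.75, 3.56 and 3.35 CPM (0.73, SE 0.35; edgeR adjusted p = 0.409). pals-17 stood at 11.1, 5.33 and 6.67 CPM (-0.44, SE 0.29; edgeR adjusted p = 0.599). Replicate 1 was the highest of its group for all 3. pals-16 (-0.32, SE 0.33), pals-20 (0.14, SE 0.66) and pals-5 (0.64, SE 1.18), which gave 0, 6 and 1 reads, had edgeR adjusted p-values of 0.791 to 0.967. Of the IPR effectors outside the family, 4 of 22 rose against N2, among them B0507.8 by 2.70 and fbxa-158 by 1.40, and 1 fell, trpl-5 by 3.89. Over all genes 0.429% were called higher and 0.612% lower.

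**Figure D5:**
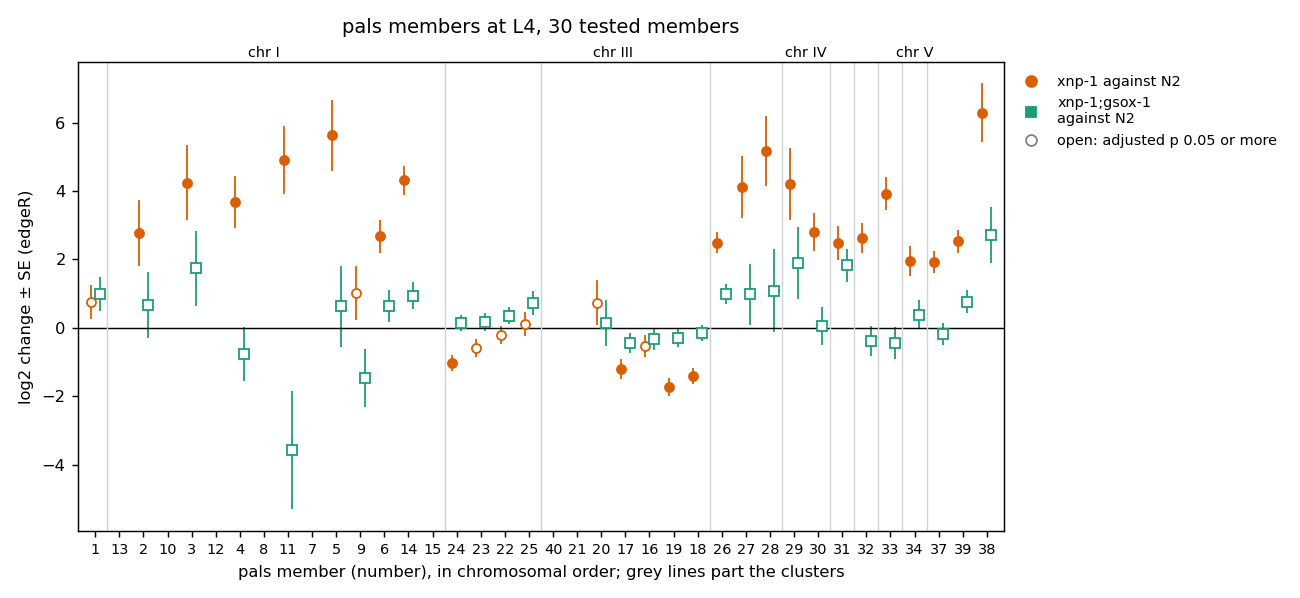
Log2 change against N2 at L4 with its SE (y axis, edgeR) for the 30 tested pals members in chromosomal order (x axis), in xnp-1 (circles) and xnp-1;gsox-1 larvae (squares). Filled symbols passed the threshold. The xnp-1 values lie above 1.9 for the 19 members that rose and between -1.74 and -1.02 for the 4 that fell, and every xnp-1;gsox-1 symbol is open; both comparisons use the same N2 libraries.

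Set directly against xnp-1 larvae, xnp-1;gsox-1 larvae had 16 lower and 5 higher members of 30 tested, where 44.2% of all genes were called, 21.9% as lower and 22.3% as higher. pals-33 stood at 0.47, 0.48 and 0.67 CPM against 10.6, 12 and 10.8 CPM, a log2 change of -4.35 (SE 0.49; edgeR adjusted p = 4.26e-05). pals-14 stood at 0.90, 1.27 and 0.96 CPM against 10.7, 14 and 7.53 CPM (-3.36, SE 0.40; edgeR adjusted p = 6.04e-05). In both genes every xnp-1;gsox-1 library lay below every xnp-1 library. pals-32 (-3.01), pals-37 (-2.10), pals-4 (-4.44), pals-39 (-1.77) and pals-26 (-1.49) were lower as well, with edgeR adjusted p-values of 0.000233 to 0.00165. pals-5 gave 0, 6 and 1 reads against 68, 99 and 50. pals-5, pals-11 and pals-28 are among the 16 but passed the filter only through the xnp-1 libraries; without the 5 such members 13 of 25 were lower and 5 higher. pals-11 gave 132 reads in xnp-1 larvae and none in xnp-1;gsox-1 larvae, at least 47-fold lower (23.5-fold if both mates were counted). pals-7 and pals-8, below the filter, each gave 62 reads in xnp-1 larvae and none in xnp-1;gsox-1 larvae, at least 22.1-fold lower (11-fold if both mates were counted).

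The 5 higher members all lie in the regulator clusters. pals-24 was higher by 1.16 (SE 0.23; edgeR adjusted p = 0.00187), pals-19 by 1.44 (SE 0.26; edgeR adjusted p = 0.000952) and pals-18 by 1.27 (SE 0.24; edgeR adjusted p = 0.00113). pals-23 (0.75, edgeR adjusted p = 0.0374) and pals-17 (0.77, edgeR adjusted p = 0.0478) were near the threshold. pals-17 lost its call in the fit of these 2 groups alone without the replicate block (0.77, edgeR adjusted p = 0.0733). The same held with the block (0.71, edgeR adjusted p = 0.0717, where 48.9% of all genes were called). That call was also lost with DESeq2, with RLE scaling and with no filter. So it was without xnp-1;gsox-1 replicate 1 or 3 and without any xnp-1 library. pals-23 lost its call with RLE scaling, without xnp-1;gsox-1 replicate 2 or 3 and without any xnp-1 library. The lower call of pals-9 (-2.48, edgeR adjusted p = 0.033) was lost without each of the same libraries. pals-22 (0.56, SE 0.26; edgeR adjusted p = 0.1), pals-25 (0.61, SE 0.35; adjusted p = 0.173), pals-16 (0.21) and pals-20 (-0.59) missed the threshold.

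Other genes and markers differed between these groups. Of the IPR effectors outside the family 13 of 22 were lower in xnp-1;gsox-1 than in xnp-1 larvae, eol-1 by a log2 change of -3.91 and B0507.8 by one of -3. Over all genes 21.9% were called lower and 22.3% higher. Effectors that passed the filter only through the xnp-1 libraries were not set apart here either. Adult and yolk markers summed to 10.8 to 29.3 CPM and oocyte and early embryo markers to 121.7 to 301.3 CPM in xnp-1;gsox-1 larvae, far below the sums in xnp-1 larvae given above. Of the tissue markers, 3 of 6 for epidermis and 3 of 7 for intestine were higher and none lower, with sums of 1084 to 1676 CPM and 2913 to 4493 CPM in xnp-1;gsox-1 larvae. Their part in the difference between these groups was not tested. Against the libraries labelled gsox-1, edgeR called no member, where 0.652% of all genes were called, with 10 at an unadjusted p under 0.05. DESeq2 called pals-26, pals-29, pals-30 and pals-38 higher there (2.99% of all genes). pals-29 gave 34 reads in xnp-1;gsox-1 larvae and none in the libraries labelled gsox-1, at least 10.5-fold higher (5.25-fold if both mates were counted).

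The interaction term asks whether the xnp-1 effect at L4 differed between the 2 gsox-1 labels. It passed for 12 of 30 tested members, where 33.3% of all genes were called, 17.2% as higher and 16.1% as lower. pals-3 and pals-11 among them passed the filter only through the xnp-1 libraries, and without the 5 such members it passed for 10 of 25, a share of 40% that is near that of all genes. The 8 members with a negative term were pals-14 (-3.28, SE 0.57; edgeR adjusted p = 0.00155), pals-33 (-3.75, SE 0.67; edgeR adjusted p = 0.00182), pals-32 (-2.55), pals-4 (-3.93), pals-39 (-1.64), pals-6 (-2.23), pals-11 (-7.61) and pals-3 (-4.26). The 4 with a positive term were pals-19 (2.01, SE 0.37; edgeR adjusted p = 0.0019), pals-24 (1.63), pals-18 (1.42) and pals-17 (1.19). The median was -1.41 over the members and 0.15 over all genes. Of the switches only pals-17 passed (edgeR adjusted p = 0.0417), and it lost its call without any 1 of 10 of the 12 libraries. It also lost it with RLE scaling (edgeR adjusted p = 0.0532) and with no filter (edgeR adjusted p = 0.0504). For pals-5 the term was -1.42 with an SE of 3.47, since the libraries labelled gsox-1 had no read. Without xnp-1 replicate 2 the count fell to 7, as pals-3, pals-11, pals-39, pals-6 and pals-17 were lost. pals-3 also lost its call without any 1 of 7 other libraries, pals-11 without xnp-1 replicate 3, gsox-1 replicate 3 or xnp-1;gsox-1 replicate 2, pals-4 without gsox-1 replicate 2 and pals-6 without gsox-1 replicate 1. In simulated data of this size the term was found for 27% of genes with a 4-fold interaction. Few genes were changed there, with 29 calls in all against 33.3% of genes here, so the adjusted threshold was stricter. Genes at very low levels were not among those changed. The 27% is therefore not the power of the test reported here.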

How the data were processed

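Poly(A) RNA of whole animals was sequenced in 24 libraries. The authors deposited raw counts per gene, made with featureCounts 2.0.1 for embryos and L1 larvae (fragments, minimum overlap 60 bases) and 2.0.6 for L4 larvae, strand-specific, mapping quality at least 10, on WS280 gene models, per the file headers. FastQC, Trim Galore, STAR and SAMtools are named in the submitters' processing notes. At L4 both mates may have been counted, since 70.8% of counts from 1 to 20 were even (43.1% in the other table), so small L4 counts overstate the number of fragments. Reads shared by near-identical paralogues or overlapping genes (pals-12 with pals-3, pals-18 with pals-19, pals-13 with C17H1.2) make those counts uncertain. A further table, named for small RNAs, was not used because its values follow the poly(A) counts.

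Each table was fitted whole, with its 4 groups, in edgeR 4.0.16 (R 4.3.3), using filterByExpr, TMM scaling, the quasi-likelihood F test and Benjamini-Hochberg adjustment over all genes at 0.05. The fit was tested on simulated data. Alternatives were DESeq2 1.42.0, other scalings, no filter, 2-group fits, a replicate block, each library left out and, chosen after seeing the data, halved L4 counts. Members and gene lists were chosen with earlier results of these data known. The members named are the switches, pals-5, the 6 highest per kilobase in N2 and, per comparison, the up to 8 with the smallest adjusted p in each direction; others were chosen after their values were seen.

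Replicate numbers in the labels were taken to pair libraries where the deviations of all same-numbered libraries correlated above 0.1. This held for N2 and xnp-1 L1 larvae (0.785, 0.505 and 0.712), N2 and xnp-1 at L4 (0.236, 0.158 and 0.151), N2 and xnp-1;gsox-1 (0.548, 0.319 and 0.421) and xnp-1 and xnp-1;gsox-1 (0.271, 0.136 and 0.154). It did not hold for N2 and xnp-1 embryos (0.0315, 0.0783 and -0.0605), for embryos and L1 larvae of the same genotype, or for any pair with gsox-1.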

Additional observations from a re-analysis of the deposited data

Results flagged for a closer look

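For 12 members the effect of xnp-1 at L4 differed between animals with and without the gsox-1 label, by the interaction term in edgeR at an adjusted p under 0.05. The same term passed for 33.3% of all genes, so a count of 12 among 30 tested members is near the background. The term was negative for pals-14 (-3.28), pals-33 (-3.75), pals-32 (-2.55), pals-4 (-3.93), pals-39 (-1.64), pals-6 (-2.23), pals-11 (-7.61) and pals-3 (-4.26) on the log2 scale. It was positive for pals-19 (2.01), pals-24 (1.63), pals-18 (1.42) and pals-17 (1.19). pals-3 and pals-11 passed the filter only through the xnp-1 libraries, and the value of pals-11 depends on a group with no read and is no bound.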

How the results depend on the processing

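No called result changed sign under any alternative run. In embryos the count of called members, 0, became 3 with DESeq2, 1 in the fit of the 2 groups alone (pals-38) and 1 in that fit with the replicate block (pals-26). In L1 larvae it became 8 in the 2-group fit with the replicate block. For xnp-1;gsox-1 against N2 it became 2 with DESeq2 and ranged from 0 to 1 with single libraries left out. Against gsox-1 it became 4 with DESeq2 and ranged from 0 to 1. Both counts of 1 came without xnp-1;gsox-1 replicate 1 and were pals-26. The interaction count, 12, ranged from 7 to 15 with single libraries left out and was 17 with DESeq2. With single libraries left out, the count was 26 to 30 for N2 development and 29 to 31 for xnp-1 development. It was 22 to 24 for xnp-1 at L4 and 18 to 24 for xnp-1;gsox-1 against xnp-1. With DESeq2 these counts were 32, 33, 24 and 25. In every run they stayed within 1.5 times of their main values. Between xnp-1;gsox-1 and xnp-1, the fit of the 2 groups alone ended the call of pals-17 and added pals-2, pals-3 and pals-29 without the replicate block (adjusted p = 0.0733, 0.00801, 0.00817 and 0.036) and with it (0.0717, 0.0134, 0.00584 and 0.00738). The block in the 4-group fit kept pals-17 and added pals-3 and pals-29. In the other paired L4 comparisons the block changed no call of a member. Halved L4 counts gave 22 calls for xnp-1, 23 for xnp-1;gsox-1 against xnp-1 and 12 for the interaction, took pals-28 below the filter and ended the interaction call of pals-11 (adjusted p = 0.0619). Scaling to library totals moved the median of all genes from 0.11 to 0.30 in xnp-1 development. The causes were not tested. Members with few reads could not all be tested: at L4, 8 of 38 were below the filter.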
